A study of Oryza sativa with 4 samples.

Results

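The SAPK genes, SAPK1 to SAPK10, code for the rice kinases of abscisic acid and osmotic stress signalling and make up the SnRK2 family of this species. They were taken as the genes that carry SAPK1 to SAPK10 as symbol or synonym in the gene annotation, and all 10 were found among the 17905 genes with a probe set assigned to them alone on the array. Each was read by 1 probe set. RNA came from the collar of the rice flag leaf, a 1 cm piece around the lamina joint where blade meets sheath and the leaf angle is set. The mutant plants carried lc1, a leaf angle mutation known from the literature as an allele of GH3.1, and were compared with the wild type. Each genotype was measured on 2 Affymetrix Rice Genome arrays, which per the labels are biological replicates. The cultivar, the kind of lc1 allele, the age of the plants and any treatment are not given in the sources used here, and both genotypes were sampled from the same organ.

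Abscisic acid is bound by PYL/RCAR receptors, and the receptor with its hormone blocks clade A protein phosphatases 2C. These phosphatases keep SnRK2 kinases dephosphorylated and inactive, so that blocking them frees the kinases to phosphorylate bZIP transcription factors such as TRAB1 and, in Arabidopsis, ion channels and NADPH oxidases. The rice SAPK family falls into subclass I (SAPK4, SAPK5, SAPK6 and SAPK7), subclass II (SAPK1, SAPK2 and SAPK3) and subclass III (SAPK8, SAPK9 and SAPK10). Hyperosmotic stress activates the kinases of all 3 subclasses in rice cells, whereas activation by abscisic acid is known for subclass III in particular. Activation is by phosphorylation, which an RNA measurement does not see.

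The 4 arrays had 57381 probe sets each, and their median deposited signals were 16.1 and 13.0 in lc1 and 11.8 and 12.1 in the wild type. Each array was therefore brought to a common median by factors of 0.817 and 1.01 for lc1 and 1.11 and 1.09 for the wild type, and signals below are scaled signals. The background floor, the 95th percentile of 23 control probe sets without a rice target, was 11.2 and 13.0 on the lc1 arrays and 10.1 and 12.9 on the wild-type arrays. GH3.1, an amido synthetase gene that checks the mutant label, had signals of 451 and 423 in lc1 and of 1.11 and 9.78 in the wild type, where both arrays lay under the floor. It was at least 38.4-fold higher in lc1 (limma adjusted p = 0.0557, which does not pass the threshold of 0.05). A probe set that the array names as a reporter read 2690 and 2145 in lc1 and 21.2 and 4.13 in the wild type (limma adjusted p = 0.0119). As a check of the tissue, 2 of 3 lamina joint markers stood above the floor on every array: the ligule regulator LG1 (108 and 137 in lc1, 147 and 261 in the wild type) and BU1 (60.8 and 80.1 in lc1, 48.7 and 82.0 in the wild type). The third, DL, had 32.2 and 8.80 in lc1, the second of these under the floor, and 16.3 and 25.0 in the wild type. The leaf marker CAB2R, a chlorophyll a/b binding protein gene, lay above the floor on every array. Of the markers of other organs, 1 of 5 anther probe sets (MTR1), 1 of 5 endosperm probe sets (a GLUA2 probe set) and 2 of 2 root probe sets (LSI1 and WOX11) lay above the floor on all arrays. The summed signal of the root markers was 445 and 320 in lc1 and 269 and 333 in the wild type, that of the anther markers 144 and 178 in lc1 and 147 and 99.6 in the wild type, and that of the endosperm markers 165 and 226 in lc1 and 282 and 209 in the wild type. Their part in the SAPK values was not tested.

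All 10 SAPK transcripts were measured well above background in both genotypes. The lowest SAPK signal on any array was 89.6 and the highest 1218, and the members stood between 7.43 and 119 times the floor of their array. Probe sets differ in how strongly they bind, so the signals of different SAPK genes are not ranked against each other. Of the 10 probe sets, 8 are of the plain kind, that of SAPK7 can read several transcripts of its gene, and that of SAPK9 (suffix _s_at) can read transcripts of more than 1 gene, so that a related kinase may contribute to the SAPK9 signal.

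**Figure D1:**
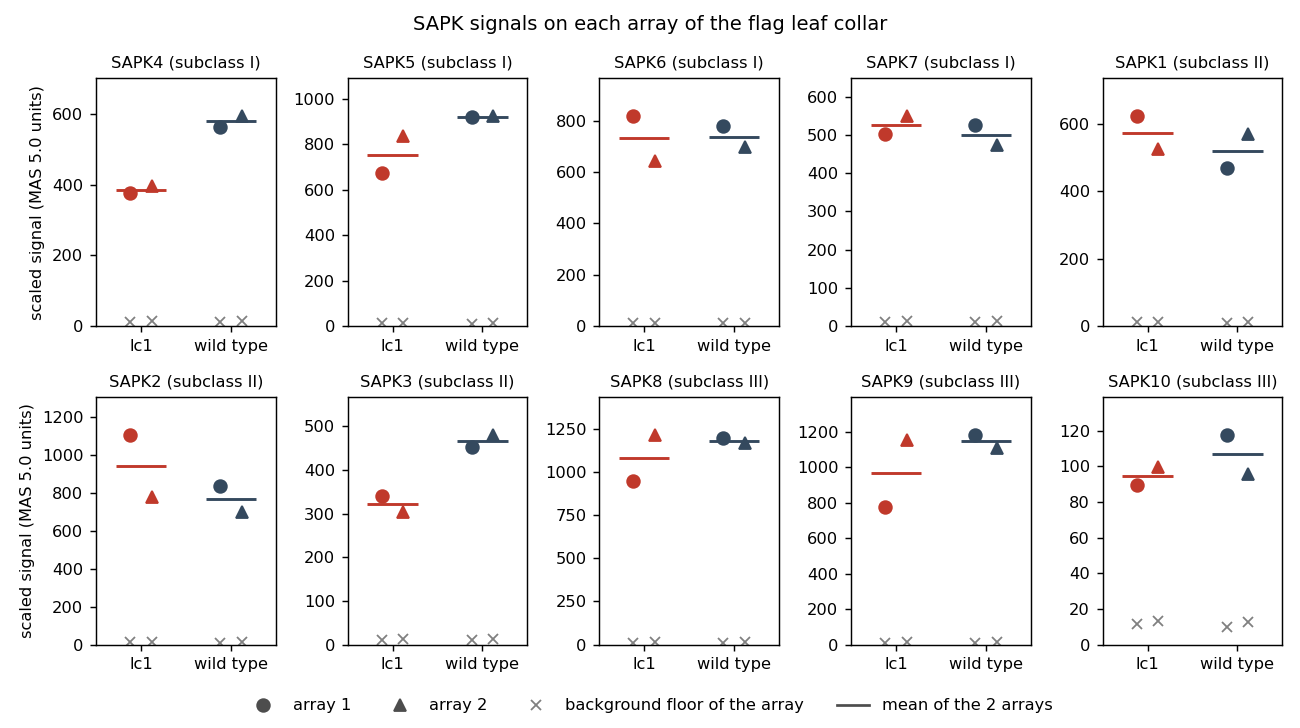
Scaled signal of the 10 SAPK probe sets (vertical axis, MAS 5.0 units, from 0, with its own range in each panel) on the lc1 arrays (red, left) and the wild-type arrays (dark, right); circles are array 1, triangles array 2, lines the mean of the 2 arrays and crosses the background floor. After scaling, SAPK4, SAPK3 and SAPK5 are the members whose lc1 arrays both lie below both wild-type arrays.

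The comparison asks whether lc1 lamina joints hold other amounts of the SAPK transcripts than wild-type joints. SAPK4 and SAPK3 had the largest differences of the family, 1.50-fold and 1.45-fold lower in lc1 by point estimate, with both lc1 arrays below both wild-type arrays. SAPK5 was also separated by genotype, at 1.23-fold lower. For SAPK3 and SAPK5 this separation was present only after scaling. In the deposited signals lc1 array 1 of SAPK3 (418.1) lay above wild-type array 1 (407.3). Likewise lc1 array 2 of SAPK5 (827.2) lay above wild-type array 1 (826.9). SAPK4 was separated in the deposited signals too. The other 7 members overlapped between the genotypes. None of the 10 passed the test: limma, fitted over all 34355 tested probe sets with Benjamini-Hochberg adjustment, called 0 of 10 SAPK probe sets, where 0.0262% of all tested probe sets were called. At an unadjusted limma p under 0.05 stood 1 of 10 members, SAPK4, against 8.16% of all tested probe sets, and it was lower in lc1, as were 4.77% of all. The genotypes did not overlap for 3 of 10 members, against 39.7% of all tested probe sets. Both lc1 arrays lay below both wild-type arrays for 3 of 10 members, against 23.2% of all tested probe sets, and above them for 0 of 10, against 16.4%. With 2 arrays against 2, an exact permutation test of a single gene could not give a p below 0.333, so limma, which shares the spread over probe sets, was the only test used.

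In subclass I, SAPK4 had signals of 375 and 397 in lc1, against 565 and 594 in the wild type. The replicates of each genotype lay close together and the genotypes did not overlap. The mean was 386 ± 15.1 in lc1 and 579.8 ± 20.7 in the wild type (SD, n = 2 each), a log2 difference of -0.59 ± 0.22 (SE), with a 95% interval of -1.10 to -0.08 and a limma adjusted p of 0.566. SAPK4 is known in rice as a kinase linked to salt tolerance. SAPK5 read 673 and 837 in lc1 and 921 and 925 in the wild type. The wild-type arrays were nearly equal while the lc1 arrays were spread below them, so that the log2 difference of -0.30 ± 0.21 (limma adjusted p = 0.739) was -0.14 without lc1 array 1 and -0.46 without lc1 array 2.

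SAPK6 and SAPK7, the other members of subclass I, lay near 0. SAPK6 had 817 and 644 in lc1 and 779 and 695 in the wild type, and the lc1 arrays bracketed the wild-type arrays. Its log2 difference was -0.02 ± 0.22, with an interval of -0.53 to 0.49. SAPK7 had 502 and 549 in lc1 and 527 and 474 in the wild type, with interleaved arrays. Its log2 difference was 0.07 ± 0.23, with an interval of -0.44 to 0.58. SAPK6 changed sign between settings and SAPK7 did without wild-type array 2, so neither has a direction here.

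Subclass II held members on both sides of 0. SAPK3 had signals of 341 and 304 in lc1, against 454 and 481 in the wild type. The genotypes did not overlap, and the gap between them was wider than the spread within either. The mean was 323 ± 26.3 in lc1 and 467 ± 19.3 in the wild type (SD, n = 2 each), a log2 difference of -0.54 ± 0.24 with a 95% interval of -1.07 to 0.00016 and a limma adjusted p of 0.611. SAPK2, a mediator of abscisic acid responses in rice seedlings, had 1109 and 778 in lc1 and 840 and 699.7 in the wild type. Only lc1 array 1 stood above both wild-type arrays, and the log2 difference of 0.28 ± 0.24 (limma adjusted p = 0.786) was 0.02 without that array and 0.53 without lc1 array 2. SAPK1, which is closely related to SAPK2, had 623 and 526 in lc1 and 469 and 571 in the wild type. The genotypes overlapped and the log2 difference was 0.14 ± 0.24, with an interval of -0.39 to 0.68; it was 0.02 without lc1 array 1 and 0.27 without lc1 array 2.

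All 3 members of subclass III, the kinases that abscisic acid itself activates, had point estimates below 0 in the scaled signals and overlapping genotypes. In the deposited signals none of the 3 read lower in lc1. SAPK8, which phosphorylates TRAB1 in rice cells, had 949 and 1218 in lc1 and 1198 and 1170 in the wild type. The second lc1 array was the highest of the 4 and the first the lowest. The log2 difference was -0.14 ± 0.21 with an interval of -0.61 to 0.33, and it was -0.32 without lc1 array 2 and 0.04 without lc1 array 1. SAPK9 had 779 and 1153 in lc1 and 1184 and 1108 in the wild type, again with a low first lc1 array. Its log2 difference was -0.27 ± 0.24 (limma adjusted p = 0.781), and it was -0.56 without lc1 array 2 and 0.01 without lc1 array 1. SAPK10, whose signal was nearest to the floor, had 89.6 and 99.8 in lc1 and 118 and 95.7 in the wild type, so that lc1 array 2 lay between the wild-type arrays. Its log2 difference was -0.17 ± 0.29 with an interval of -0.83 to 0.50. It was -0.089 without lc1 array 1, -0.018 without wild-type array 1 and -0.32 without wild-type array 2.

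**Figure D2:**
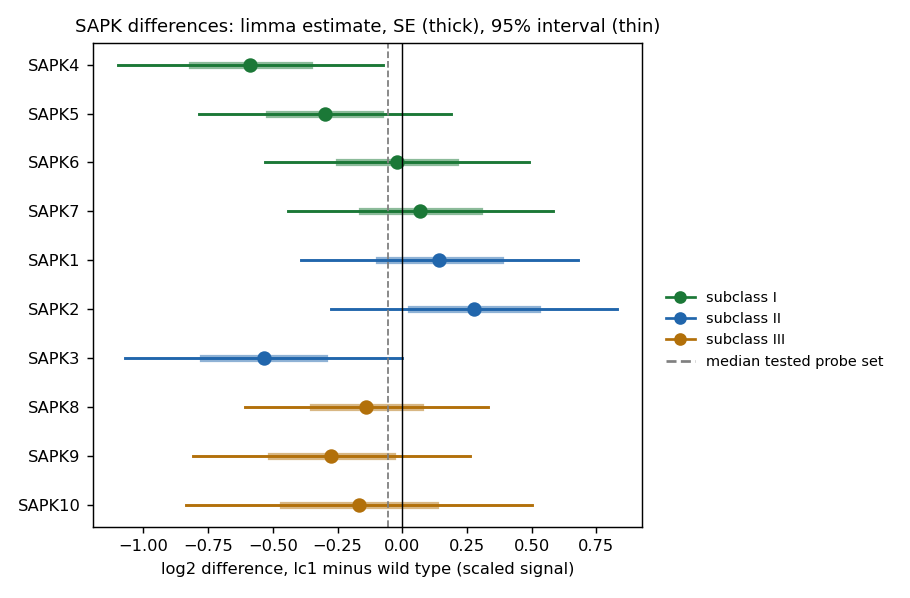
Log2 difference of the scaled signal, lc1 minus wild type, for each SAPK gene (horizontal axis), coloured by subclass; points are limma estimates, thick bars 1 SE and thin bars 95% intervals over 2 arrays per genotype, and the dashed line is the median of all tested probe sets. The interval of SAPK4 (-1.10 to -0.08) lies below 0, and the intervals of the other 9 members include 0.

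For the family as a whole, 7 of 10 members had a point estimate below 0 in the scaled signals and 3 above it. In the deposited signals only SAPK3, SAPK4 and SAPK5 read lower in lc1. The median log2 difference of the scaled signals was -0.15, against -0.05 over all tested probe sets, of which 18906 lay below 0 and 15449 above. The family median was -0.04 without lc1 array 1, -0.28 without lc1 array 2 and -0.07 without wild-type array 1. The median size of the difference was 0.22 log2 units in the family and 0.30 over all tested probe sets. The limma standard errors of the members ran from 0.21 to 0.29, with a median of 0.23, against 0.35 over all tested probe sets. The 95% intervals, not adjusted for the number of members, lay within 2-fold in either direction for 8 of 10 members. Only those of SAPK3 and SAPK4 reached further, both downwards, and no interval reached beyond 2.14-fold lower (SAPK4) or 1.78-fold higher (SAPK2) in lc1. Differences within these intervals could not be resolved with 2 arrays per genotype. In whole tissue, fewer cells that make a transcript and less of it per cell cannot be told apart.

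The lc1 arrays differed from each other more than the wild-type arrays did for 7 of 10 members. The median gap between the 2 arrays of a genotype was 0.28 log2 units in lc1 and 0.12 in the wild type for the SAPK genes, against 0.38 in lc1 and 0.32 in the wild type over all tested probe sets. A gap over 0.3 was seen for 5 members in lc1 (SAPK2, SAPK5, SAPK6, SAPK8 and SAPK9) and for 0 in the wild type. The gap ran both ways: on lc1 array 1 SAPK2 stood 0.51 and SAPK6 0.34 log2 units higher than on lc1 array 2, while for SAPK9 (-0.57), SAPK8 (-0.36) and SAPK5 (-0.31) lc1 array 1 was the lower. Taken one array at a time against the wild-type mean, SAPK3, SAPK4, SAPK5 and SAPK10 lay below it on both lc1 arrays, SAPK1, SAPK2 and SAPK7 above it on both, and SAPK6, SAPK8 and SAPK9 on opposite sides. SAPK4 had the smallest gap in lc1 (-0.08), and stood at -0.63 and -0.55 on the lc1 arrays, while SAPK3 stood at -0.45 and -0.62. RNA integrity was read as the 5′ over 3′ ratio of control probe sets. For Gapdh it was 0.246 and 0.138 on the lc1 arrays and 0.164 and 0.236 on the wild-type arrays. For Actin it was 0.131 and 0.060 in lc1 and 0.082 and 0.100 in the wild type. For Cyph it was 0.446 and 0.313 in lc1 and 0.318 and 0.383 in the wild type. Each control thus read lower at its 5′ than at its 3′ end on every array. The part of these ratios in the gaps was not tested.

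**Figure D3:**
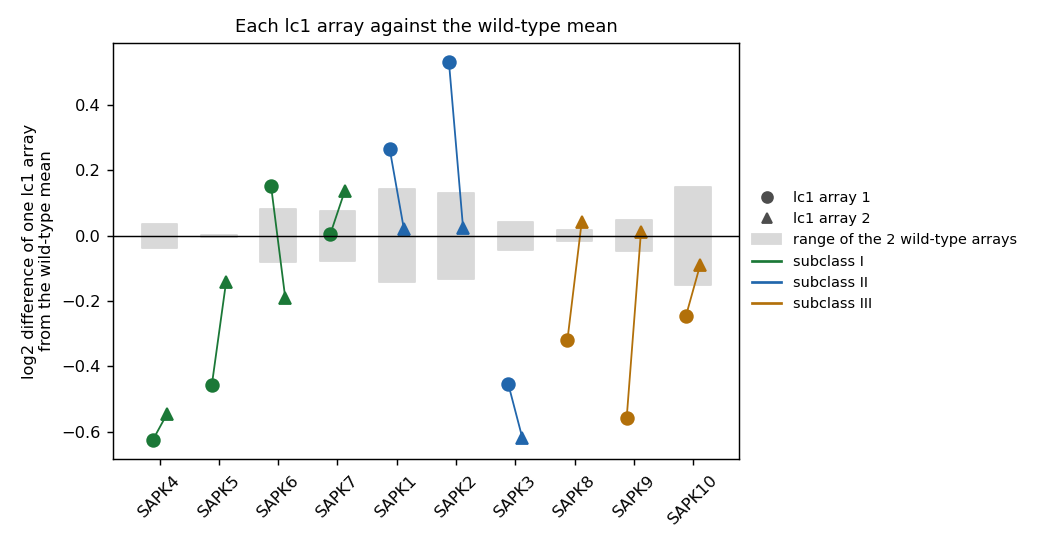
Log2 difference of each lc1 array from the wild-type mean (vertical axis) for the 10 SAPK genes, with lc1 array 1 as circles, lc1 array 2 as triangles and the range of the 2 wild-type arrays as grey boxes. Both lc1 arrays lie below the grey box for SAPK3, SAPK4 and SAPK5, whereas for SAPK9 array 1 lies at -0.56 and array 2 at 0.01.

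Other genes of the pathway and related genes were taken from 7 lists chosen by symbol or synonym. Limma called 0 of their 115 tested probe sets. An unadjusted limma p under 0.05 was met by 8 of them, and by 8.16% of all tested probe sets. Most of the 115 lay outside the core pathway: 65 were protein phosphatases 2C, of which 7 belonged to clade A, and 38 were SnRK1 and SnRK3 relatives. PYL11, the 1 receptor gene that the lists matched, had signals of 1117 and 911 in lc1 and 1113 and 1043 in the wild type, a log2 difference of -0.09 ± 0.20.

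The protein phosphatases 2C, of which clade A holds the direct inhibitors of SnRK2 kinases, were the largest list. Of 65 tested probe sets from 53 genes, 24 lay above 0 and 41 below, with a median of -0.10, and 0 were called in either direction. The brightest, PP2C28 and PP2C45, gave log2 differences of 0.09 ± 0.17 and -0.03 ± 0.18. All 7 tested probe sets of clade A were uncalled, with limma adjusted p of 0.698 or more. ABIL1, a clade A phosphatase also named PP2C06, had signals of 1239 and 1400.5 in lc1 and 1527 and 1078 in the wild type, and its genotypes overlapped. PP2C30 had 995 and 964 in lc1 and 871 and 665 in the wild type, with lc1 above the wild type on both arrays and a log2 difference of 0.36 ± 0.22. PP2C08 had 379 and 368 in lc1 and 494 and 482 in the wild type, a difference of -0.39 ± 0.23, and PP2C68 lay the same way at -0.38 ± 0.25. In all, 3 probe sets of the clade lay above 0 and 4 below.

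Downstream of the kinases, BZIP23, a bZIP factor of the abscisic acid response that SnRK2 kinases phosphorylate in rice, had 1374 and 1085 in lc1 and 1039 and 755 in the wild type. Both lc1 arrays lay above both wild-type arrays, at a log2 difference of 0.46 ± 0.24 (limma adjusted p = 0.650). TRAB1, the substrate of SAPK8, had 455 and 456 in lc1 and 425 and 444 in the wild type, a difference of 0.07 ± 0.23. RBOHB, an NADPH oxidase of the plasma membrane, gave -0.05 ± 0.18. VP1, a B3 factor of seed maturation, was below the filter on dim probe sets and was not tested.

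The genes of abscisic acid synthesis and breakdown that the lists matched were not called either. For synthesis these were 4 genes, PSY1, PSY2, PSY3 and ZEP1. The NCED and AAO genes, which the list also sought by name, had no match, so the synthesis route was read only in part. ZEP1 lay at -0.44. Among 6 synthesis probe sets, 4 lay below 0 and 2 above, with a median of -0.35, which was -0.18 without lc1 array 1 and -0.48 without lc1 array 2. PSY1 and PSY2, phytoene synthases at the entry to the carotenoid route, gave -0.33 ± 0.22 and 0.11 ± 0.26 on their brightest probe sets, while the 2 other PSY1 probe sets gave -0.37 and 0.10. PSY3, the synthesis gene with the smallest p (limma adjusted p = 0.383), had a mean of 202 ± 2.86 in lc1 and 372 ± 15.5 in the wild type (SD, n = 2 each) and was named after its values were seen. The hydroxylase gene ABA8OX1, which starts abscisic acid breakdown, had 447 and 132 in lc1 and 289 and 136 in the wild type, so that it differed more within each genotype than between them (0.30 ± 0.56). ABA8OX2 had 182 and 304 in lc1 and 215 and 195 in the wild type, at 0.20 ± 0.31.

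The SnRK1 and SnRK3 genes, the other branches of the same kinase superfamily, spanned a wider range of differences than the SAPK genes, which is given as a description. Of their 38 tested probe sets from 25 genes, 27 lay below 0 and 11 above, from -1.18 to 1.49. Their median was -0.25 and their median size 0.38 log2 units, against 0.22 for the SAPK genes. At an unadjusted limma p under 0.05 stood 5 of 38 lower, against 4.77% of all tested probe sets, and 1 of 38 higher, against 3.39%. None was called. Among the lower ones, CIPK2 (-0.62) had other probe sets above 0 (0.75 and 0.14), while the other CIPK10 probe sets lay below 0. CIPK25 and CIPK7, calcium-linked kinases of the SnRK3 branch and the brightest of the list, gave -0.06 ± 0.20 and 0.26 ± 0.18, but a dimmer CIPK7 probe set gave -0.25. The lowest and the highest of the list, CIPK31 (-1.18 ± 0.28, limma adjusted p = 0.315) and CIPK14 (1.49 ± 0.30, limma adjusted p = 0.226), were named after their values were seen. The other CIPK31 probe set lay the opposite way, at 0.32.

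**Figure D4:**
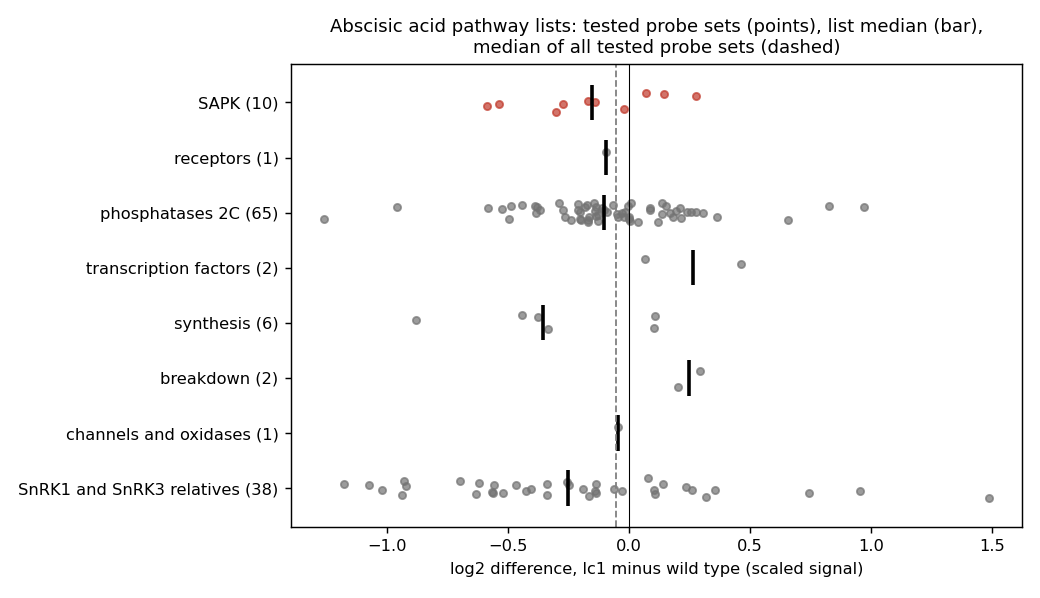
Log2 difference, lc1 minus wild type (horizontal axis), of every tested probe set of the SAPK genes (red, top) and of the 7 lists of pathway and related genes (grey), with the number of probe sets in brackets, the list median as a black bar and the median of all tested probe sets as a dashed line. The SAPK genes lie between -0.59 and 0.28, and the SnRK1 and SnRK3 genes between -1.18 and 1.49.

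For SAPK8, the named genes with the most similar pattern over the 4 arrays were sought, as the smallest value of the largest difference between centred log2 signals. Among 3001 candidate probe sets these were Fd-GOGAT, a ferredoxin-dependent glutamate synthase gene, at 0.015 log2 units, the kinesin gene KIN7C at 0.018 and ASPR2 at 0.027. Fd-GOGAT had 2731 and 3448 in lc1 and 3392 and 3336 in the wild type, the same low first lc1 array as SAPK8. A likeness over 4 arrays among so many candidates is a description only.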

How the data were processed

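Total RNA of the flag leaf collar was measured on Affymetrix Rice Genome arrays, 2 for lc1 and 2 for the wild type. The deposited values are intensities on a linear scale, the signals of the Affymetrix Microarray Suite version 5.0, per the series' design text; detection calls were not used here. Per the submitters' processing notes the authors used R 1.8.0. Here each array was scaled to a common median over the 57258 probe sets that are not Affymetrix controls (123 left out), and scaled signals under 0.05 were set to 0.05 and put on a log2 scale. The 34355 probe sets whose mean log2 signal reached the 40th percentile (2.58, or 5.96 on the linear scale) entered the test, and the 10 SAPK probe sets were among them. The test was limma 3.58.1 in R 4.3.3 (lmFit, eBayes with an intensity trend, genotype only, 2 residual degrees of freedom, 2-sided, Benjamini-Hochberg over all tested probe sets, threshold 0.05), and it was tested on simulated data. At most 1.63% of signals were identical between any pair of arrays.

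Names came from the platform annotation and the gene table of assembly ASM3414082v1, used for names only: 22436 had 1 gene, 95 several and 34727 none. TRAB1, which matched the synthesis list through a synonym, was counted as a transcription factor only, and the clade A list was added later from background knowledge. The rule named all SAPK probe sets, the 2 brightest genes of each list, GH3.1 and the 3 genes most like the SAPK probe set with the highest mean signal (SAPK8), a choice of probe set and not a rank of transcript amounts. Members and lists were chosen with earlier results of these data known. Alternatives were the signals as deposited, quantile normalization, no filter and a 60th percentile filter, a pseudocount of 16, no intensity trend, the replicate number as a block and leaving out each array.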

Additional observations from a re-analysis of the deposited data

How the results depend on the processing

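No SAPK probe set was called under any of the 11 alternatives tried. Values for the signals as deposited are given relative to their median shift of 0.22. Of 110 SAPK values under the alternatives, 6 then had the opposite sign, and these were small. The count would be higher with the shift left in. SAPK6 gave 0.034 with the signals as deposited. Leaving out single arrays, SAPK6 ran from -0.19 to 0.15, SAPK7 from -0.0057 to 0.15, SAPK8 from -0.32 to 0.041 and SAPK9 from -0.56 to 0.010. With the shift left in, SAPK6, SAPK8, SAPK9 and SAPK10 also read higher in lc1, SAPK9 by very little. Only SAPK3, SAPK4 and SAPK5 then read lower. SAPK8 had deposited signals of 1162 and 1204 in lc1 and 1075 and 1076 in the wild type. SAPK9 had 953.4 and 1140.2 in lc1 and 1062.5 and 1019.5 in the wild type. The sign of SAPK6, SAPK8, SAPK9 and SAPK10 therefore depends on the scaling. On these terms SAPK4 stayed between -0.63 and -0.53, SAPK3 between -0.62 and -0.45 and SAPK5 between -0.46 and -0.14. With the shift taken out, the deposited values differ from those reported above by the same amount for every member. They therefore cannot test the scaling. The deposited signals themselves lay closer together. SAPK4 had 459.7 and 392.3 in lc1 and 507.2 and 547.0 in the wild type. Its unadjusted limma p was 0.226 with these signals, 0.0709 without an intensity trend and 0.0769 with the replicate block. It stayed under 0.05 with quantile normalization, no filter, the 60th percentile filter and the pseudocount. SAPK5 had 823.7 and 827.2 in lc1 and 826.9 and 851.0 in the wild type. The count over all probe sets, 9 as reported, was unstable: 1 with the signals as deposited, 4 with quantile normalization, 2 with no filter, 32 with the 60th percentile filter, 34 with a pseudocount of 16 and 0 without an intensity trend (limma, 2483 at an unadjusted p under 0.05). Without single arrays it was 264 (lc1 array 1), 1061 (lc1 array 2), 5 (wild-type array 1) and 6 (wild-type array 2). These fits have 1 array in a genotype, which is assumed to vary like the other genotype's 2 arrays. With the replicate number as a block it was 634, with 0 of 10 SAPK probe sets and 1 pathway probe set called (CIPK14, limma adjusted p = 0.0117). Same-numbered arrays did not deviate together (r = -0.036 across 34355 probe sets, which are not independent), so the numbers are not taken to pair the arrays. Of the pathway probe sets, 0 were called as reported and from 0 to 2 without single arrays: CIPK14 without lc1 array 1, and CIPK31 and CIPK6 without lc1 array 2. The cause of these shifts was not tested. All 10 SAPK probe sets lay above the background floor on all 4 arrays.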
